A study of Mus musculus with 13 samples.

Results

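The tubulin isotype genes described here are 10 members of the α- and β-tubulin families, 4 α (Tuba1a, Tuba1b, Tuba1c, and Tuba4a) and 6 β (Tubb2a, Tubb2b, Tubb3, Tubb4a, Tubb5, and Tubb6), chosen by symbol from the 40787 genes of a count table of mouse sciatic nerve transcriptomes. Each symbol matched 1 row. After a crush injury, mRNA of Tubb3, Tuba1c, and Tubb6 rose 29.9-fold, 21.5-fold, and 16.6-fold in control nerves, whereas the abundant Tuba1a and Tuba1b were not called. Loss of Raptor was accompanied by lower Tubb4a in uninjured and in injured nerves, and by lower Tubb3 and Tuba1a in injured nerves. The rise of Tubb6 and Tuba1c with injury was smaller. The Tuba1a call and the Tuba1c interaction were each lost in most fits that left out 1 library.

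The study asked how mTORC1 signaling in Schwann cells (SCs) bears on their dedifferentiation after injury. The mice were C57BL/6. RaptorKO mice carried floxed Rptor alleles and a tamoxifen-inducible CreERT2 expressed in SCs and other glia, and controls carried the floxed alleles without Cre. Both genotypes received tamoxifen at 2 months of age and a sciatic crush on 1 side 2 months later. At 5 days post crush (dpc), nerves were stripped of epineurium, and on the injured side the nerve distal to the crush was used. This gave 3 control injured, 3 RaptorKO injured, 3 control contralateral, and 4 RaptorKO contralateral libraries, 1 library per nerve. Each library pools all cells of the nerve, so fewer cells of a type and less RNA per cell cannot be told apart.

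Microtubules are polymers of α- and β-tubulin heterodimers. Mammals encode several isotypes of each chain, which are nearly identical in the folded core and differ mostly in a short acidic C-terminal tail on the outer surface, where many microtubule-associated proteins bind and where enzymes add or remove tyrosine, glutamate, and other groups. Tubb3 is widely used as a neuronal marker, Tubb4a is abundant in myelinating glia of the brain, Tubb5 and Tuba1b are expressed in most cells, and several others are less well characterized in nerve. Unpolymerized tubulin also represses its own mRNAs, since ribosomes making tubulin recruit a factor that triggers decay of the transcript.

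The last 60 coding bases before the stop codon of 5 β genes are shown because they encode the C-terminal tails. The stretches of Tubb2a and Tubb2b differ in some bases but encode the same amino acids, so these tails do not set that pair apart. All stretches were taken from the GENCODE M21 transcripts of GRCm38. Capitals mark bases that differ from Tubb5, or have no Tubb5 counterpart, in an alignment of the coding sequences. Coordinates are given with the strand of the gene.
Tubb5 (chr17:35834985-35835044, minus): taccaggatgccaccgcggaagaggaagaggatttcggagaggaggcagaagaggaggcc
Tubb3 (chr8:123421620-123421679, plus): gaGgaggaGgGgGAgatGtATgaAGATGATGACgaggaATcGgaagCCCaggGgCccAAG
Tubb4a (chr17:57080693-57080752, minus): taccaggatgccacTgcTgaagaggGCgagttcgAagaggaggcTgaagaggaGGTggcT
Tubb2a (chr13:34074471-34074530, minus): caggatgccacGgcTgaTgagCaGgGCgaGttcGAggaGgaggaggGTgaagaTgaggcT
Tubb2b (chr13:34127474-34127533, minus): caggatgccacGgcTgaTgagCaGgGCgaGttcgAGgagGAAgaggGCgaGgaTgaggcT

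In the Tubb3 stretch 29 of 60 bases were marked, and in that of Tubb4a 10. In those of Tubb2a and Tubb2b 15 and 18 were marked. The coding sequences of Tubb3, Tubb2a, and Tubb2b (450, 445, and 445 codons) are longer than that of Tubb5 (444 codons). These counts thus depend in part on where the alignment placed gaps.

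Over the whole coding sequence, Tuba1a shared 98.3% of aligned bases with Tuba1b and 97.1% with Tuba1c, and Tubb2a shared 96.5% with Tubb2b. Of all stretches of 100 bases of the main transcript, 65.8% for Tuba1a, 73% for Tuba1b, and 53.4% for Tuba1c were also present in another gene, chiefly in one another and in predicted genes such as Gm49450. For Tubb2a and Tubb2b, whose genes neighbor each other on chromosome 13, the shares were 36.9% and 27.7%. The counting program divides reads that match several genes, so values of single Tuba1 and Tubb2 members are uncertain, and tests on their summed counts are given beside them. No such stretch was shared for Tubb3, Tubb4a, Tubb5, or Tubb6. The Tuba4a transcript shared 46.7% of its stretches with Stk16, a kinase gene that overlaps it by 1379 bases on the opposite strand. The library kit kept the strand of the RNA, so reads of the overlap can be assigned if strand was used in counting. That setting is not given in the sources used here, and Tuba4a is uncertain to this extent. Tubb3 lies within the span of the predicted gene Gm20388 on the same strand, with no shared stretch of transcript.

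Library totals ranged from 8200458 to 13581775 counts. Values are CPM, the counts scaled to a common library size, after TMM scaling, and a gene was called when edgeR's quasi-likelihood test gave a Benjamini-Hochberg adjusted p below 0.05 over all tested genes and a fold change above 1.2. All 10 members passed the count filter in each comparison. Rptor, the targeted gene, was at 43.6 to 52.2 CPM in control and 22.1 to 27.8 CPM in RaptorKO contralateral nerves, and at 35.0 to 49.5 against 23.3 to 28.8 CPM in injured nerves, and was called lower in both. Both nerves of control replicate 3 carried Xist counts (15017 and 14462, at most 17 in every other library), so sex was not balanced between genotypes. Without these nerves the 3 calls of members in injured nerves and that of Tubb4a in contralateral nerves were kept, while the call of Tubb6 in contralateral nerves (adjusted p = 0.0627) and the interaction of Tuba1c (adjusted p = 0.0899) were lost. Summed markers of skeletal muscle stayed at or below 26.2 CPM in all libraries, those of adipocytes ranged from 1.53 to 461.6 CPM, and those of erythrocytes from 6.01 to 252.5 CPM.

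**Figure D1:**
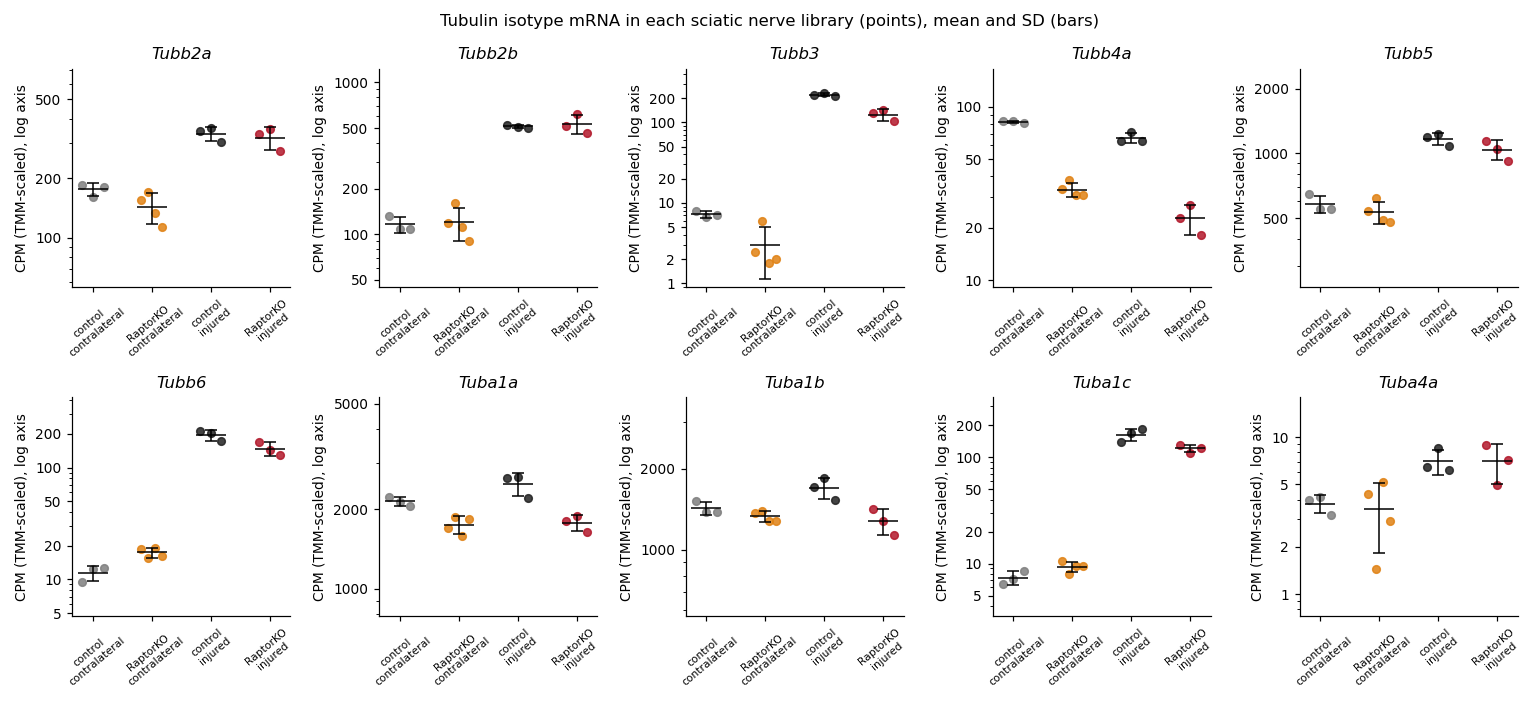
CPM of each member on log axes in 13 libraries (points), with the group mean and SD (bars), for control contralateral (n = 3), RaptorKO contralateral (n = 4), control injured (n = 3), and RaptorKO injured (n = 3) nerves. Tubb3, Tubb6, and Tuba1c were at 1.80 to 19.3 CPM in contralateral and 103 to 233 CPM in injured libraries, and Tubb4a was lower in every RaptorKO library than in any control library.

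Per kilobase of transcript, the scale on which genes can be compared, the uninjured control nerve was dominated by Tuba1a, at 1186 ± 44.7 CPM per kb (SD, n = 3), and Tuba1b, at 822 ± 45.7. The β genes followed, with Tubb5 at 220 ± 20.5, Tubb2a at 109 ± 7.88, Tubb2b at 53.4 ± 6.46, and Tubb4a at 36.9 ± 0.529 CPM per kb. Tubb6 was at 6.50 ± 0.997, Tubb3 at 3.84 ± 0.338, Tuba1c at 3.72 ± 0.552, and Tuba4a at 1.33 ± 0.173 CPM per kb. Tubb3 and Tuba1c, neighbors in this order, differed by less than their spread.

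In injured control nerves the order changed. Tuba1a (1379 ± 138 CPM per kb) and Tuba1b (976 ± 88.6) still came first, followed by Tubb5 (441 ± 29.8), Tubb2b (235 ± 6.04), and Tubb2a (209 ± 17.4). Tubb3, at 119 ± 5.56, and Tubb6, at 111 ± 12.004 CPM per kb, differed by less than their spread, and both exceeded Tuba1c (82.5 ± 11.4) and Tubb4a (29.7 ± 2.08). Tuba4a, at 2.48 ± 0.448, remained the lowest.

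The first comparison asked how the members respond to crush in nerves with intact mTORC1. Of the 10 members, 7 were called higher and 1 lower in injured than in contralateral control nerves, where 32.4% of all 12430 tested genes were called higher and 32.9% lower. The members' median log2 fold change was 0.92, beside -0.002 for all tested genes. Tubb3, widely used as a neuronal marker, was at 7.87, 6.64, and 7.01 CPM in the 3 contralateral and at 219, 233, and 213 CPM in the 3 injured libraries. Which cells of the nerve carried it was not tested. Every injured library was far above every contralateral one, with a log2 fold change of 4.90 ± 0.10 (SE, adjusted p = 4.33e-11, edgeR).

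Genes of the axon and neuron marker list were divided in their response. Nefl, Nefm, and Snap25, which encode 2 neurofilament chains and a synaptic protein, had at most 9, 6, and 2 counts in any injured control library and at least 64, 73, and 73 counts in each contralateral control library. The sum over the 11 axon and neuron markers was 152.9 to 189.5 CPM in injured against 110.3 to 126 CPM in contralateral control nerves. Of these markers, Gap43 and Uchl1 were called higher and Nefl, Nefm, Prph, and Snap25 lower. In injured control libraries Nefl, Nefm, Nefh, Prph, and Snap25 were each at 2.54 CPM or less. Most of the sum there came from the list's other markers, which include Gap43 and Uchl1. Which cells of the nerve carried Gap43 and Uchl1 was not tested.

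Tuba1c, an α isotype of low level in the intact nerve, was at 6.43, 7.13, and 8.57 CPM before and 138, 170, and 182 CPM after injury in control nerves. The groups did not overlap, and the log2 fold change was 4.43 ± 0.15 (adjusted p = 2.59e-10, edgeR). Since 53.4% of the Tuba1c stretches are present in other genes, this value depends on how shared reads were divided. The sum of the 3 Tuba1 genes (0.23 ± 0.08, not called) cannot check it, because Tuba1a and Tuba1b dominate that sum. Tubb6, the third such member, was at 9.41, 12.3, and 12.6 CPM in contralateral and 212, 203, and 172 CPM in injured control libraries. Its log2 fold change was 4.05 ± 0.13 (adjusted p = 1.60e-10, edgeR). These 3 members, the lowest but for Tuba4a in contralateral nerves, had the largest fold changes of the 10.

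The β isotypes of intermediate level rose less. Tubb2b was at 108 to 133 CPM in contralateral and 501 to 527 CPM in injured control libraries, a log2 fold change of 2.09 ± 0.11 (adjusted p = 1.18e-08, edgeR). Tubb5, the main β gene, went from between 551 and 646 CPM to between 1083 and 1238 CPM, with a log2 fold change of 0.96 ± 0.11 (adjusted p = 6.63e-06), and Tubb2a from between 161 and 185 CPM to between 304 and 358 CPM, with 0.89 ± 0.10 (adjusted p = 9.78e-06). The groups of these 3 genes did not overlap, and the share of all genes with such a separation was not determined. The summed counts of Tubb2a and Tubb2b were called higher too, at 1.49 ± 0.10, so the call of the pair does not depend on how reads were divided between them. Tuba4a was at 3.21 to 4.13 CPM, or 33 to 51 counts, in contralateral and 6.16 to 8.50 CPM in injured control libraries. It was called higher, with a log2 fold change of 0.85 ± 0.28 (adjusted p = 0.0176), but the call was lost without control contralateral replicate 3, without control injured replicate 2, and in a fit of all 13 libraries. Stk16, which overlaps it, was at 27.1 to 32.3 and 28.6 to 36.0 CPM and was not called.

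The main α genes and Tubb4a behaved otherwise. Tuba1a was at 2059 to 2220 CPM in contralateral and 2200 to 2642 CPM in injured control libraries, and the groups overlapped. Tuba1b was at 1384 to 1524 and 1537 to 1844 CPM. Neither was called, with log2 fold changes of 0.17 ± 0.09 and 0.20 ± 0.10, and the sum of the 3 Tuba1 genes, at 0.23 ± 0.08 (adjusted p = 0.0265), stayed under the fold threshold of 1.2. Without TMM factors both genes and the sum were called higher, and without control injured replicate 3 Tuba1b (0.28) and the sum (0.32) were. Tubb4a was at 83.3, 82.5, and 80.9 CPM in contralateral and 63.3, 71.6, and 63.8 CPM in injured control libraries. It was called lower, with a log2 fold change of -0.36 ± 0.09 (adjusted p = 0.00331, edgeR), a call that was lost without TMM factors (-0.16). Leaving out these factors moved the median log2 fold change of all genes from -0.002 to 0.20 in control nerves and from 0.03 to 0.19 in RaptorKO nerves.

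The fall of Tubb4a was small beside that of myelin transcripts. The sum of 10 markers of myelinating SCs was 90472 to 99433 CPM in contralateral and 3203 to 4072 CPM in injured control nerves, and all 10 were called lower. Summed cell-cycle transcripts, for 15 genes, were 80.9 to 95.6 CPM before and 2185 to 2368 CPM after injury, and those of 10 repair SC markers 203 to 228 CPM before and 2326 to 2739 CPM after. The 10 macrophage markers summed to 233 to 258 CPM before and 3356 to 4302 CPM after injury. The part of these shifts in the tubulin changes was not tested.

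In RaptorKO nerves the crush called 6 members higher and 1 lower, where 30.5% and 28.5% of 12515 tested genes were called higher and lower. The members' median was 1.07, and that of all tested genes 0.03. Tubb3 was at 2.43, 5.88, 1.80, and 2.03 CPM in the 4 contralateral and at 129, 143, and 103 CPM in the 3 injured libraries. The log2 fold change was 5.27 ± 0.32 (adjusted p = 2.53e-07, edgeR). Those of Tuba1c and Tubb6 were 3.67 ± 0.12 and 3.06 ± 0.13, and those of Tubb2b, Tubb2a, and Tubb5 were 2.12 ± 0.17, 1.14 ± 0.14, and 0.94 ± 0.12. Tubb4a was again called lower (-0.58 ± 0.16, adjusted p = 0.00859). Tuba1a (-0.00 ± 0.10) and Tuba1b (-0.08 ± 0.10) were not called, nor was their sum with Tuba1c (0.02 ± 0.09). Tuba4a, at 0.99 ± 0.41 (adjusted p = 0.0592), was not called, but 8 of its 15 alternatives called it, among them DESeq2, the exact test, a replicate block (1.03, adjusted p = 0.032), and the fits without RaptorKO contralateral replicate 3 (1.255) or RaptorKO injured replicate 2 (1.197).

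**Figure D2:**
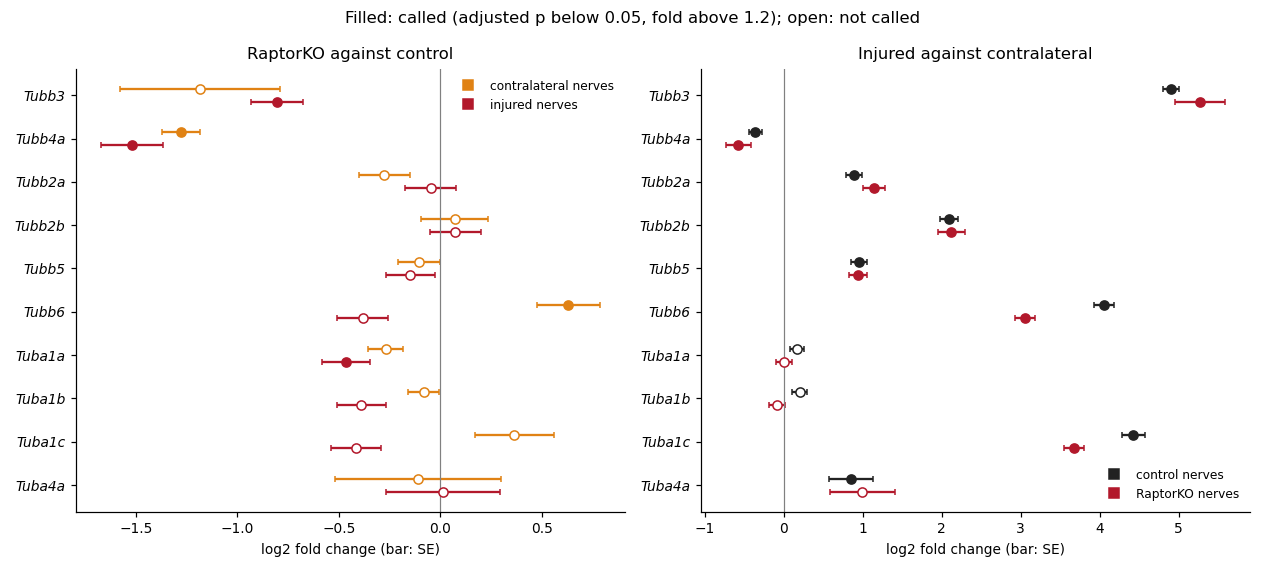
log2 fold changes of the 10 members with their SE (horizontal bars), RaptorKO against control on the left and injured against contralateral on the right. Filled points were called. Tubb4a lies at -1.28 and -1.52 on the left, and Tubb3, Tuba1c, and Tubb6 lie beyond 3 on the right in both genotypes.

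Sequence at the RefSeq gene starts was available for 8 of the 10 members in the RefSeq promoter table of GRCm38.p6, which holds a window of 300 bases, mostly upstream, at each start. The 2 members that rose most after injury in controls, Tubb3 and Tuba1c, each carried CCAAT, a common promoter element bound by NF-Y, shown with 10 bases on either side and in capitals as read on the gene's strand (ATTGG is its reverse complement).
Tubb3 (chr8:123411466-123411490, plus): gcgctccagcATTGGcccgcagcgc
Tuba1c (chr15:99029730-99029754, plus): cttaggacccATTGGaggcaactga
The Tubb3 site lies upstream of the RefSeq start but downstream of the Tubb3 start in GENCODE M21 (chr8:123411424). CCAAT on either strand was found in 4 of the 8 members (Tuba1a, Tuba1c, Tubb3, and Tubb5), of which Tuba1a was not called after injury, and in 37.4% of all 32851 promoters. TGANTCA, the site of AP-1 factors such as c-Jun, was found in 0 of 8 and in 7.81% of all promoters. CACGTG, an E-box, was found in Tubb5 alone of the 8 and in 7.15% of all promoters.

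The comparison of genotypes in uninjured nerves asked what loss of Raptor does to members in adult nerves at rest. Of the 10, 1 was called higher and 1 lower, where 4.49% and 5.68% of 11878 tested genes were called. The members' median log2 fold change was -0.11 beside 0.01 for all tested genes. Tubb4a was at 83.3, 82.5, and 80.9 CPM in the 3 control and at 33.4, 37.9, 31.0, and 31.1 CPM in the 4 RaptorKO contralateral libraries. No RaptorKO library reached the level of any control library, and the log2 fold change was -1.28 ± 0.09 (adjusted p = 6.07e-05, edgeR), a 2.42-fold lower level. The call held in all 15 alternatives.

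Tubb6, a β isotype of low level in these nerves, was at 9.41, 12.3, and 12.6 CPM in control and at 18.7, 15.6, 19.3, and 16.1 CPM in RaptorKO contralateral libraries. The groups did not overlap, and it was called higher (0.63 ± 0.16, adjusted p = 0.0295). Its counts were low, between 104 and 205 per library, and the call was lost without any 1 of the 3 control libraries and without RaptorKO contralateral replicate 1 or 3 (adjusted p up to 0.108). Tubb3, at 6.64 to 7.87 CPM in control libraries, was lower in each of the 4 RaptorKO libraries, but replicate 2, at 5.88 CPM, stood apart from 1.80 to 2.43 CPM in the other three. With all libraries the log2 fold change was -1.18 ± 0.39 (adjusted p = 0.0865) and was not called, whereas DESeq2 and the exact test called it. Without RaptorKO contralateral replicate 2 it was -1.76 and was called (adjusted p = 0.0048). The axon and neuron marker sum was 127 CPM in that library and 99.2 to 114 CPM in the other RaptorKO contralateral libraries, against 110.3 to 126 CPM in controls. Of the 7 markers tested between genotypes, Nefh and Nefl were called higher and Uchl1 lower in RaptorKO, with a median log2 fold change of 0.60. Of these markers, 5 were higher and 1 lower at an unadjusted p below 0.05, which 2955 of all 11878 tested genes passed. Their part in the Tubb3 values was not tested.

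Tuba1a was at 2059 to 2220 CPM in control and 1579 to 1876 CPM in RaptorKO contralateral libraries. The groups did not overlap, but the log2 fold change of -0.27 ± 0.09 was not called (adjusted p = 0.0803). DESeq2, the replicate block (-0.30, adjusted p = 0.0273), and the fit without RaptorKO contralateral replicate 4 (-0.30, adjusted p = 0.0496) called it. Tuba1c had 0.37 ± 0.19 (adjusted p = 0.271), and the summed Tuba1 counts had -0.19 ± 0.08 (adjusted p = 0.174). The other 5 members lay between -0.28 and 0.07, and none was called under any alternative. Beside these values, 7 of 9 tested macrophage markers were called higher in RaptorKO contralateral nerves, with sums of 380 to 471 CPM against 233 to 258 CPM in controls, and so were 3 of 8 fibroblast markers (9378 to 12489 against 6457 to 7368 CPM). The myelinating SC sum was 76027 to 94217 against 90472 to 99433 CPM. The part of these in the tubulin values was not tested.

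In injured nerves distal to the crush at 5 dpc, 3 members were called lower and 0 higher in RaptorKO. Of 12040 tested genes, 4.44% and 4.09% were called lower and higher. At an unadjusted p below 0.05, 6 members were lower and 0 higher, where 2594 of the 12040 genes passed in either direction. DESeq2 called 6 members lower and 0 higher, and 648 of all genes lower and 672 higher. edgeR's exact test called 4 members lower and 0 higher, and 655 of all genes lower and 667 higher. The members' median log2 fold change was -0.39, beside 0.001 for all tested genes. Tubb4a was at 63.3, 71.6, and 63.8 CPM in control and 22.9, 27.1, and 18.2 CPM in RaptorKO injured libraries. The groups were far apart, and the log2 fold change was -1.52 ± 0.15 (adjusted p = 3.57e-04, edgeR), a 2.86-fold lower level.

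Tubb3 was at 219, 233, and 213 CPM in control and 129, 143, and 103 CPM in RaptorKO injured libraries. The groups did not overlap, and the log2 fold change was -0.80 ± 0.13 (adjusted p = 0.00373, edgeR). The calls of Tubb3 and Tubb4a held in all 14 alternatives. The axon and neuron marker sum was 108 to 145 CPM in RaptorKO and 152.9 to 189.5 CPM in control injured libraries, with 2 of the 11 markers tested and 0 called by edgeR (2 lower at an unadjusted p below 0.05), and its part in the Tubb3 difference was not tested. Most of the sum came from markers other than Nefl, Nefm, Nefh, Prph, and Snap25, which were each at 3.32 CPM or less in every injured library. Those other markers include Gap43 and Uchl1. Single markers did not all follow the sum. Nefm was at 1.70, 0.868, and 1.75 CPM in RaptorKO and 0.555, 0, and 0.195 CPM in control injured libraries, and Nefh at 3.32, 0.789, and 2.76 against 0.647, 0.561, and 0 CPM. Snap25 was at 0.269, 0.553, and 0.920 against 0.0924, 0.187, and 0 CPM. For these 3 genes, at 37 counts or fewer per library and too low to be tested, each RaptorKO library lay above each control library. The share of all genes with such a separation was not determined. Groups overlapped for Nefl (1.34, 0.158, and 0.368 CPM in RaptorKO against 0.832, 0.0934, and 0 CPM in control). They also overlapped for Prph (1.34, 1.90, and 2.58 against 1.57, 1.40, and 2.54 CPM). Tuba1a, the most abundant member, was at 2615, 2642, and 2200 CPM in control and 1802, 1889, and 1636 CPM in RaptorKO libraries. It was called lower (-0.46 ± 0.12, adjusted p = 0.0331), and this call was lost without control injured replicate 1 or 2 and without RaptorKO injured replicate 1 or 3 (adjusted p up to 0.158). The sum of the 3 Tuba1 genes gave -0.43 ± 0.11 (adjusted p = 0.0387) and was likewise lost without each of those 4 libraries and with the replicate block (adjusted p = 0.0553).

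Tuba1b, Tuba1c, and Tubb6 had values of like size without passing the test. Tuba1b was at 1721, 1844, and 1537 CPM in control and 1423, 1284, and 1136 CPM in RaptorKO libraries, with a log2 fold change of -0.39 ± 0.12 (adjusted p = 0.0801). Tuba1c was at 138, 170, and 182 against 130, 111, and 122 CPM (-0.42 ± 0.13, adjusted p = 0.068), and without control injured replicate 1 it was called. Tubb6 was at 212, 203, and 172 against 171, 142, and 131 CPM (-0.38 ± 0.12, adjusted p = 0.0855). The groups of these 3 genes did not overlap, although the nearest Tubb6 libraries were separated by less than 1 CPM, and DESeq2 called all 3. How many of all tested genes had groups without overlap was not determined. Tubb5 had -0.15 ± 0.12, Tubb2a -0.05 ± 0.13, Tubb2b 0.08 ± 0.13, and Tuba4a 0.01 ± 0.28, and their groups overlapped. The 2 closely related Tubb2 genes, summed, gave 0.03 ± 0.13. Tubb2b had 466 to 617 CPM in RaptorKO and 501 to 527 CPM in control injured libraries.

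Sums of cell type markers also differed between the injured groups. The cell-cycle sum was 1281 to 1464 CPM in RaptorKO and 2185 to 2368 CPM in control injured nerves, and 12 of 15 genes were called lower. All 3 tested erythrocyte markers were called higher in RaptorKO, with a median of 2.27 and sums of 46.7 to 75.8 against 6.01 to 24.7 CPM. All 7 endothelial markers were called higher, with sums of 681 to 1014 against 346 to 490 CPM. The repair SC sum was 1875 to 2470 against 2326 to 2739 CPM, with 1 of 8 tested genes (Ncam1) called lower, and the fibroblast sum 8210 to 12973 against 6372 to 9357 CPM, with 2 of 7 called higher. The macrophage sum was 2417 to 4798 against 3356 to 4302 CPM, with 0 of 10 called at an adjusted p and 0 at an unadjusted p below 0.05 in edgeR. The myelinating SC sum was 2546 to 3135 against 3203 to 4072 CPM. Their part in the tubulin differences was not tested.

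The interaction asked whether the effect of genotype differed between injured and contralateral nerves. It was called lower for 2 members and higher for 0, where 1.41% and 1.07% of 12851 tested genes were called. At an unadjusted p below 0.05, 3 members were lower and 0 higher, where 1827 of the 12851 genes passed in either direction. DESeq2 also called 2 members lower and 0 higher, and 353 of all genes lower and 245 higher. For Tubb6 the interaction was -1.01 ± 0.19 on the log2 scale (adjusted p = 0.0104). Its mean was 11.4 ± 1.75 CPM in control and 17.4 ± 1.81 CPM in RaptorKO contralateral nerves, but 195.7 ± 21.1 CPM in control and 148 ± 20.8 CPM in RaptorKO injured nerves, so that the rise with injury was 16.6-fold in controls and 8.33-fold in RaptorKO. It held when any 1 library was left out and at -1.16 (adjusted p = 0.025) without the female control nerves.

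For Tuba1c the interaction was -0.77 ± 0.19 (adjusted p = 0.0465). Means were 7.38 ± 1.09 CPM in control and 9.36 ± 1.01 CPM in RaptorKO contralateral nerves and 163 ± 22.7 CPM and 121 ± 9.95 CPM in injured nerves, a 21.5-fold and a 12.7-fold rise. The call was kept without control contralateral replicate 3, RaptorKO contralateral replicate 2, or control injured replicate 1, and lost without any 1 of the other 10 libraries (adjusted p up to 0.138, size -0.89 to -0.68). The summed Tuba1 counts, which Tuba1a and Tuba1b dominate, had -0.24 ± 0.12 (adjusted p = 0.413). Tubb4a, lower in RaptorKO in both states, had an interaction of -0.24 ± 0.18 (adjusted p = 0.624), and Tubb3 one of 0.34 ± 0.36 (adjusted p = 0.767). Without RaptorKO contralateral replicate 2, the library in which Tubb3 stood apart, the Tubb3 interaction was 0.95 and was called (adjusted p = 0.0387). The cell-cycle list had 9 of 15 genes called lower in the same interaction, and the repair SC list 2 of 8 (Ncam1 and Ngfr).

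Summing members per kilobase shows how the makeup of tubulin mRNA shifted. The β sum was 406 to 467 CPM per kb in control contralateral libraries and 1068 to 1197 CPM per kb in control injured libraries, and the α sum 1945 to 2111 and 2196 to 2612 CPM per kb. The ratio of α to β mRNA among the members was thus 4.52, 4.89, and 4.66 in contralateral and 2.14, 2.18, and 2.06 in injured control libraries. In RaptorKO it was 4.53, 4.16, 4.68, and 5.56 in contralateral and 1.79, 1.72, and 1.87 in injured libraries. Each RaptorKO injured library was below each control injured library, while the contralateral groups overlapped. These ratios are descriptions without a test, and they leave out isotypes that are not members, such as Tubb4b. Without division by length the group means were 3.68 and 3.67 in contralateral and 1.74 and 1.46 in injured control and RaptorKO nerves.

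Among the β members alone, the pool of the contralateral control nerve consisted of Tubb5 (51.2 ± 1.22%), Tubb2a (25.4 ± 1.25%), Tubb2b (12.4 ± 0.562%), and Tubb4a (8.61 ± 0.565%), with Tubb6 at 1.53 ± 0.331% and Tubb3 at 0.893 ± 0.0144%. These shares leave out Tubb4b, whose mean in those nerves was 134 CPM without division by length. On that scale Tubb2b was at 116 and Tubb4a at 82.2 CPM. After injury Tubb3 made up 10.4 ± 0.321% and Tubb6 9.71 ± 0.569%, Tubb2b 20.6 ± 0.948%, Tubb5 38.5 ± 0.455%, and Tubb4a 2.60 ± 0.148%. In RaptorKO injured nerves Tubb3 made up 6.68 ± 0.416% and Tubb4a 1.02 ± 0.105%, both below every control injured library, and Tubb2b 24.5 ± 2.01%, above every one. In RaptorKO contralateral nerves Tubb4a made up 4.05 ± 0.253%. The α pool varied little in its 2 main members, with Tuba1a at 53.0 to 59.7% and Tuba1b at 39.3 to 45.5% over all 13 libraries, but Tuba1c went from 0.154 to 0.304% in contralateral to 2.78 to 4.19% in injured libraries.

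**Figure D3:**
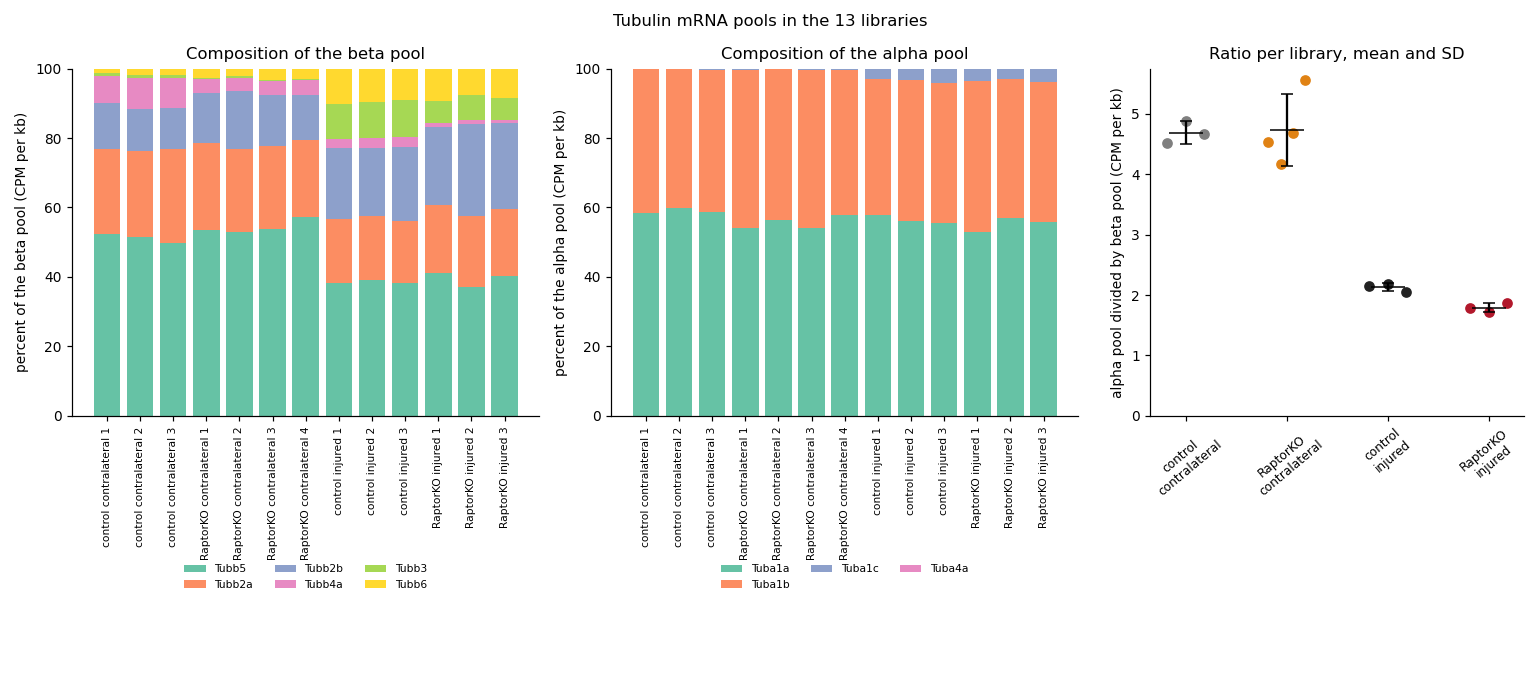
Left and middle, percent of the β and α pools (CPM per kb) contributed by each member in each of the 13 libraries. Right, ratio of the α to the β pool per library with the group mean and SD, between 4.16 and 5.56 in contralateral and between 1.72 and 2.18 in injured libraries.

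Among 12841 other genes, the one whose centered log2 CPM followed each member most closely over the 13 libraries was found by root mean square distance. For Tubb3 this was Shh, a secreted ligand of the repair SC list, at a distance of 0.38, and for Tubb4a it was Ppp3ca, a catalytic subunit of calcineurin, at 0.18. Tuba1c was nearest to Fam111a, a protease linked to DNA replication (0.209), and Tubb6 to Plekho1 (0.215). Tubb2b was nearest to Clic1 (0.168), Tubb2a to the Arp2/3 subunit gene Arpc3 (0.137), Tubb5 to Dap (0.0951), Tuba1a to Nde1, a dynein regulator (0.0881), Tuba1b to the clathrin adaptor gene Ap2m1 (0.0882), and Tuba4a to Slc16a7, a monocarboxylate transporter (0.303).

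The remaining genes of the tubulin pathway were taken by list, and their counts are to be read against the shares of all tested genes called, 32.4% higher and 32.9% lower after injury in controls, 30.5% and 28.5% in RaptorKO, and 4.09% to 5.68% in either direction between genotypes. Of 11 other tubulin genes, 10 matched a row and 4 or 5 were tested per comparison. After injury 3 of 5 were called higher (Tubb4b, Tube1, and Tubg1) and Tuba8 lower in controls, with a list median of 0.96, where 32.4% and 32.9% of all genes were called. Tube1, an ε-tubulin of centrioles, went from 2.36 ± 0.951 to 7.24 ± 1.72 CPM (1.56 ± 0.36 on the log2 scale, adjusted p = 0.0024). In RaptorKO nerves Tubb4b and Tubg1 were called higher and Tuba8 lower. Tubg1, γ-tubulin, went from 20.4 ± 1.24 to 49.5 ± 3.07 CPM (1.25 ± 0.11) and Tuba8 from 7.30 ± 1.14 to 3.28 ± 1.42 CPM (-1.18 ± 0.33). Between genotypes Tubb4b, a β isotype of many cells and of cilia, was called lower in RaptorKO injured (181 ± 26.1 against 269 ± 24.3 CPM, -0.55 ± 0.13, adjusted p = 0.0228) and contralateral nerves (102 ± 12.3 against 134 ± 11.9 CPM, -0.37 ± 0.10, adjusted p = 0.0485).

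Of the 10 tested genes of the γ-tubulin ring complex, which nucleates microtubules, 5 were called higher and 1 lower after injury in controls (median 0.34) and 6 higher and 2 lower in RaptorKO (median 0.46), beside 32.4% and 32.9%, and 30.5% and 28.5%, of all genes. Nedd1, which anchors the complex, went from 10.2 ± 1.33 to 32.5 ± 3.89 CPM in controls (1.62 ± 0.16), and Cdk5rap2, which activates it, from 50.4 ± 4.31 to 110.1 ± 10.01 CPM in RaptorKO (1.10 ± 0.10). Akap9, which holds it at the Golgi, was the member called lower with the largest change, at -0.83 ± 0.09 and -0.46 ± 0.11. Between genotypes 1 gene, Tubgcp2, was called higher, in contralateral nerves (32.6 ± 1.61 against 25.3 ± 1.67 CPM, 0.39 ± 0.11), with a list median of -0.11. In injured nerves edgeR called 0 of 10, with 3 at an unadjusted p below 0.05, which 2594 of all 12040 tested genes passed.

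The folding list holds chaperonin (CCT) and prefoldin subunits, the tubulin cofactors, and factors of tubulin mRNA autoregulation, 22 genes that were all tested. After injury 9 were called higher and 2 lower in controls (median 0.30), and 11 higher and 2 lower in RaptorKO (median 0.35), against all-gene shares of 32.4% and 32.9%, and 30.5% and 28.5%. The called genes with the largest changes and no overlap were the chaperonin gene Cct2 (129 ± 9.57 to 222 ± 21.3 CPM, 0.75 ± 0.10) and the prefoldin gene Pfdn2 (44.3 ± 0.809 to 23.7 ± 1.964 CPM, -0.95 ± 0.12) in controls, and the cofactor gene Tbcc (0.79 ± 0.28) and the prefoldin gene Pfdn5 (-0.78 ± 0.12) in RaptorKO. Between genotypes Cct4 was called higher in RaptorKO injured nerves (149 ± 3.21 against 116 ± 2.29 CPM, 0.38 ± 0.10), and Cct2, Cct4, and Pfdn5 in contralateral nerves, with Pfdn5 at 381 ± 54.0 against 236 ± 18.9 CPM (0.72 ± 0.11). None of the list was called lower between genotypes by edgeR, 0 were lower at an unadjusted p below 0.05, and the list medians were 0.14 and 0.10.

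Of 22 enzymes that modify tubulin tails, 15 to 18 were tested per comparison. In controls 6 were called higher and 8 lower after injury (median 0.03), and in RaptorKO 4 higher and 7 lower (median 0.004), near the 32.4% and 32.9%, and 30.5% and 28.5%, of all genes. Vash2, a vasohibin that removes the terminal tyrosine, went from 0.505 ± 0.430 to 5.202 ± 1.61 CPM in controls (3.29 ± 0.55) and from 1.09 ± 0.664 to 4.73 ± 0.662 CPM in RaptorKO (2.14 ± 0.47). Ttll6, a polyglutamylase, went from 187 to 265 counts in contralateral to 0 to 3 counts in injured control libraries and from 67 to 149 counts to 0 to 2 counts in RaptorKO, and was called lower in both. In contralateral nerves Ttll6 was also called lower in RaptorKO (9.11 ± 2.08 against 21.1 ± 2.88 CPM, -1.18 ± 0.19, adjusted p = 0.00401), together with the deglutamylase gene Agbl3. In injured nerves Vash1, the other vasohibin, was the 1 gene called, at 18.6 ± 1.04 CPM in RaptorKO and 38.6 ± 4.61 CPM in controls (-1.03 ± 0.14, adjusted p = 0.00157).

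Stathmins, structural microtubule-associated proteins, and severing enzymes make up a list of 25 genes, of which 20 to 23 were tested. After injury 6 were called higher and 11 lower in controls (median -0.42), and 8 higher and 12 lower in RaptorKO (median -0.56), where all genes gave 32.4% and 32.9%, and 30.5% and 28.5%. Dclk1, a doublecortin-like kinase that binds microtubules, went from 6.87 ± 0.437 to 269 ± 33.4 CPM in controls (5.24 ± 0.12, adjusted p = 4.99e-11). Tppp3, a tubulin-bundling protein, went from 317 ± 23.2 to 21.4 ± 2.95 CPM in controls (-3.93 ± 0.13) and from 172 ± 33.4 to 16.9 ± 7.42 CPM in RaptorKO (-3.37 ± 0.28). Fignl1, a relative of the severing enzyme fidgetin, went from 1.35 ± 0.632 to 21.4 ± 4.83 CPM in RaptorKO (3.98 ± 0.34).

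Between genotypes this list had the most calls of the 6. In contralateral nerves 2 were called higher and 5 lower in RaptorKO, led by Dclk1 (11.04 ± 1.24 against 6.87 ± 0.437 CPM, 0.71 ± 0.18) and Tppp3 (-0.86 ± 0.13). In injured nerves 2 were called higher and 4 lower. Mapt, which encodes tau, was at 16.96 ± 0.916 CPM in RaptorKO and 8.39 ± 2.87 CPM in controls (1.03 ± 0.26, adjusted p = 0.0288), and Fign, fidgetin, at 15.5 ± 0.626 against 31.2 ± 0.343 CPM (-0.99 ± 0.14, adjusted p = 0.00184). Dclk1 had an interaction of -1.33 ± 0.17 (adjusted p = 0.0011), with 269 ± 33.4 CPM in control and 172 ± 18.2 CPM in RaptorKO injured nerves, and Fign was called lower in the interaction as well.

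The last list holds plus-end proteins and collapsin response mediator proteins (CRMPs), 15 genes of which 14 were tested. In each genotype 4 were called higher and 8 lower after injury, with medians of -0.64 in controls and -0.63 in RaptorKO, beside all-gene shares of 32.4% and 32.9%, and 30.5% and 28.5%. Dpysl3 (CRMP4) went from 17.3 ± 4.41 to 126 ± 8.20 CPM in controls (2.82 ± 0.15) and from 25.1 ± 5.92 to 88.6 ± 7.73 CPM in RaptorKO (1.79 ± 0.17). Dpysl5 (CRMP5) went from 31.4 ± 6.80 to 7.11 ± 1.93 CPM in controls (-2.18 ± 0.22) and had -1.68 ± 0.25 in RaptorKO. Between genotypes Dpysl3 was called lower in injured (-0.49 ± 0.11) and Dpysl5 in contralateral nerves (-0.82 ± 0.18), and Dpysl3 had an interaction of -1.05 ± 0.25 (adjusted p = 0.0415).

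**Figure D4:**
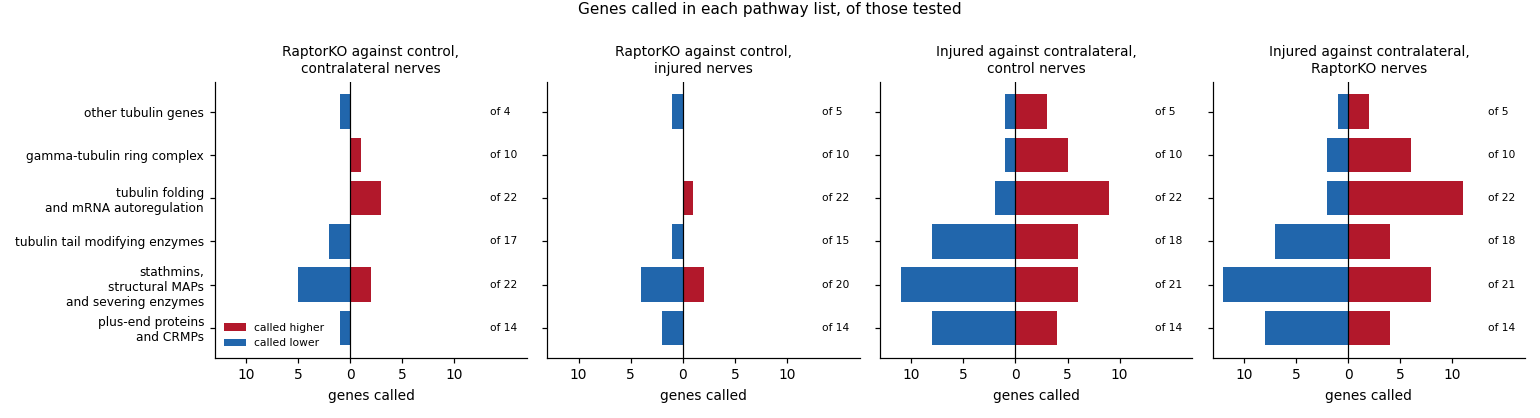
Number of genes of each of the 6 pathway lists called higher (red, to the right) or lower (blue, to the left) in 4 comparisons, with the number tested at the right of each panel. Calls were fewer between genotypes than after injury, as for all genes, of which 4.09% to 5.68% were called in either direction between genotypes and 28.5% to 32.9% after injury.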

How the data were processed

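RNA of 13 sciatic nerves was sequenced as single-end reads. The authors trimmed the reads with Trimmomatic, aligned them to GRCm38, and deposited expected counts per gene from RSEM 1.2.22, without normalization. The kit was stranded per the methods, and the strand setting of the counting is not given in the sources used here. The estimated counts were rounded to whole numbers. Of 40787 genes, 40634 matched GENCODE M21 by gene ID.

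Counts were analyzed in R 4.3.3 with edgeR 4.0.16 and TMM scaling. Genes entered a comparison with 50 or more counts in 2 or more of its libraries. The quasi-likelihood test with Benjamini-Hochberg adjustment was fitted on all genes for each pair of groups and for the interaction. DESeq2 1.42.0, edgeR's exact test, other scalings, and fits that left out each library were alternatives. The log2 CPM used for likeness had a prior count of 2. The analysis was tested on simulated counts. Transcript lengths and sequences came from GENCODE M21 and promoters from RefSeq.

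The members and lists were chosen with earlier results of these data known. Text names every member, the called gene of each list with the largest change in each direction and no overlap of groups, and the gene most like each member. Ncam1, Ngfr, Agbl3, and other called list genes were named after their values were seen. Replicates of a group were separate mice per the study. Injured and contralateral libraries of equal number are likely to be nerves of 1 mouse, since the study speaks of corresponding contralateral nerves and both nerves of control replicate 3 were female. The main fits treated them as independent, and a replicate block was an alternative. Between genotypes, this block grouped libraries that share only a replicate number and come from different mice. Replicates differed by more than sampling noise. Drawing used matplotlib. Some sequences and 1 marker gene are not reported here.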

Additional observations from a re-analysis of the deposited data

Results flagged for a closer look

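Tubb3 in RaptorKO contralateral replicate 2 was at 5.88 CPM, apart from the other 3 libraries of its group at 1.80 to 2.43 CPM. Of 10 groups of 4 libraries tested, 1 per member, this was the 1 that stood out, and chance alone marks about 1 in 20. Tubb6 and Tuba1c had a genotype effect that differed between injured and contralateral nerves by the interaction test in edgeR, at -1.01 (adjusted p = 0.0104) and -0.77 (adjusted p = 0.0465) on the log2 scale.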

How the results depend on the processing

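Over 813 recomputed member results, 715 kept their direction and side of the threshold, 30 gained and 32 lost a call, and 36, all without a call, changed sign. In injured nerves 6 members were called lower in RaptorKO with DESeq2 and 5 in a fit of all 13 libraries, against 3. Over all tested genes these settings called 648 and 649 lower, against 535. In contralateral nerves 3 members were called lower with DESeq2 and 2 with the exact test, without a count filter, in the fit of 13 libraries, or with the block, against 1. Over all tested genes these settings called 870, 702, 725, 690, and 931 lower, against 675. At an adjusted p below 0.01, 0 members were called higher. Leaving out 1 library gave 0 to 1 members higher and 1 to 2 lower. The interaction called 0 lower at the stricter threshold, 1 without the female nerves (an alternative chosen after seeing the data), and 0 to 1 higher and 1 to 2 lower when 1 library was left out. Without TMM factors 9 members rose and 0 fell after injury in controls, and calls over all genes were 61.7% higher against 49.7% in controls and 62.4% against 51.7% in RaptorKO.

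The summed Tuba1 counts lost their call in injured nerves without TMM factors (-0.41), in the exact test (-0.43), and at the stricter threshold (-0.43), and ranged from -0.50 to -0.36 when 1 library was left out. After injury in controls they were called without TMM factors (0.44), without a filter (0.28), and without the female nerves (0.28), with 0.20 to 0.32 when 1 library was left out. In RaptorKO they were at -0.009 with RLE factors and with DESeq2, and -0.034 to 0.073 when 1 library was left out.

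Signs near 0 changed as follows. Summing gave 0.028 for Tubb2a (injured), -0.13 for Tubb2b and -0.19 for Tuba1c (contralateral), and 0.016 for Tuba1a and Tuba1b (injury in RaptorKO). Without TMM factors the last 2 were 0.16 and 0.077, and without a filter Tuba1a was 0.025. Tuba4a (injured) was -0.00 in the fit of 13 libraries. The Tubb2b interaction was -0.011 with RLE factors and DESeq2 and -0.015 without TMM factors. Leaving out 1 library gave -0.13 to 0.061 for Tubb2a, -0.051 to 0.17 for Tubb2b, -0.20 to 0.21 for Tuba4a, and -0.082 to 0.13 for summed Tubb2 counts in injured nerves, -0.10 to 0.18 for Tubb2b and -0.22 to 0.17 for Tuba4a in contralateral nerves, -0.063 to 0.049 for Tuba1a after injury in RaptorKO, and interactions of -0.11 to 0.17 for Tubb2b, -0.12 to 0.037 for Tubb5, and -0.15 to 0.39 for Tuba4a. The α to β ratio without length was 3.68, 3.67, 1.74, and 1.46. The causes were not tested.

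Injured and contralateral libraries share replicate numbers and likely mice. Deviations of same-numbered injured and contralateral libraries correlated at 0.035, 0.104, and 0.228 in controls and -0.022, 0.212, and 0.166 in RaptorKO. Those of same-numbered control and RaptorKO libraries, of different mice, correlated at 0.072, 0.258, and 0.322 in contralateral and 0.031, 0.008, and -0.047 in injured nerves. These correlations therefore cannot tell whether equal numbers share a mouse. With the replicate block, Tuba4a (injury in RaptorKO, 1.03) was called, Tuba1a (injury in RaptorKO) was 0.028, and the Tubb2b interaction -0.11. Between genotypes the block joined same-numbered libraries of different mice, so its results there do not bear on pairing. There Tuba1a (contralateral) was called, the summed Tuba1 counts in injured nerves were not (-0.43), and Tuba4a (injured) was -0.004. Tuba4a, at 19 to 100 counts, is limited by depth.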
